A study of Mus musculus with 3 samples.

Results

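MicroRNA genes are often transcribed from promoters and enhancers that gene annotations do not list, and the open chromatin beside their hairpins is one place to look for such elements. The sites described here are DNase-accessible regions of mouse Müller cells that lie next to a microRNA gene and away from every annotated start site of a protein-coding or long noncoding gene. They were chosen by position and reproducibility, with no limit set on score, although reproducibility can itself favour stronger peaks. Overlapping peaks of the 3 replicates were merged. A region was kept if it held a peak of every replicate and lay within 2 kb of a GENCODE gene of type miRNA. It also had to lie over 1 kb from those start sites on the mm10 build. Of 352310 merged regions, 145369 held a peak of every replicate, 113908 of these were over 1 kb from a start site (called distal sites here), and 460 were next to a microRNA gene. These 460 sites belonged to 374 of the 2202 annotated miRNA genes.

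DNase-seq maps stretches of chromatin that DNase I can cut. It was done on primary Müller cells, the radial glia that span the retina, from healthy B6NCrl mice 12 days after birth, with males and females pooled. There was 1 group of 3 biological replicates, with no treatment, sort or time in culture named. The replicates have separate biosample labels and a common donor label, so the spread between them may be partly technical, and with no second group no contrast between conditions could be made.

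The authors deposited 300269 peaks for replicate 1, 281185 for replicate 2 and 184544 for replicate 3, each about 150 bp wide. Each peak carries a score, a whole number from 1 to 150 whose unit is not stated. Scores are given below in the order of replicates 1, 2 and 3, and a percentile is the rank of a score among all peaks of its own replicate. Read depth is unknown, and replicate 3 stood apart with fewer peaks. Promoters of 8 of 8 Müller glia markers were open, with a peak within 1 kb of a start site, in every replicate, against 2 of 5 rod, 2 of 3 bipolar cell, 2 of 4 endothelial and 1 of 2 pigment epithelium markers. Macrophage and microglia markers were open at 4 of 4 promoters in replicates 1 and 2 and at 0 of 4 in replicate 3. By replicate, endothelial markers were open at 3, 3 and 2 of 4 and pigment epithelium markers at 2, 2 and 1 of 2.

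A microRNA is cut from a hairpin within a longer primary transcript by Drosha, then by Dicer, and the mature strand finds its targets through its seed, bases 2 to 8. Genes that share a seed form a family, and members of 1 family often sit on different chromosomes with separate regulatory DNA. In the retina, miR-9 and miR-124 are known for their part in neuronal differentiation, let-7 for marking the late and differentiated state against the progenitor factor Lin28, and miR-204 for the pigment epithelium and lens. The mature sequences below, from RefSeq on GRCm38.p6, show in capitals the seeds that define the families named here.

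let-7i-5p: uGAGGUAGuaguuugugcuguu
let-7b-5p: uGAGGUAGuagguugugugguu
let-7e-5p: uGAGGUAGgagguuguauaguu
miR-9-5p: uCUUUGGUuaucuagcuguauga
miR-204-5p: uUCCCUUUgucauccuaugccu
miR-211-5p: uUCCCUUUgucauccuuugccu
miR-125a-5p: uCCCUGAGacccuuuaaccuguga
miR-99b-5p: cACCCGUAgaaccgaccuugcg

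The next sequences are sites that the results turn on: 3 next to let-7i, both of the miR-9 genes, and the strong sites of miR-210, miR-22 and miR-34a. All are printed on the plus strand of mm10, read from the RefSeq GRCm38.p6 genome, and capitals mark matches to the consensus motifs named with the motif counts further on.

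let-7i, 155 bp downstream, chr10:122985276-122985485: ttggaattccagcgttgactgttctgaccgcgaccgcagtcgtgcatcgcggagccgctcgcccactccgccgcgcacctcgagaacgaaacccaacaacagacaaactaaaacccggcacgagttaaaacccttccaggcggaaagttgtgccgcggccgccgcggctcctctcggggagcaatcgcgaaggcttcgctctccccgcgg
let-7i, 232 bp upstream, chr10:122985956-122986145: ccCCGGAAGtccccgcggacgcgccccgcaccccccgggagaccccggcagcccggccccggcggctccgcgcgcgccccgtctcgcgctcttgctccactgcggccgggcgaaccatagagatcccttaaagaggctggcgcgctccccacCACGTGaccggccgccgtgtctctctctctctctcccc
let-7i, 612 bp upstream, chr10:122986336-122986545: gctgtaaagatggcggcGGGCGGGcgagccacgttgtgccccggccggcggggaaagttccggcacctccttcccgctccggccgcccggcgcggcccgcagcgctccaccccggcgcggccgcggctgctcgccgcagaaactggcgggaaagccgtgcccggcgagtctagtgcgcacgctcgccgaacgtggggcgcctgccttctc
Mir9-1, 550 bp downstream, chr3:88216236-88216385: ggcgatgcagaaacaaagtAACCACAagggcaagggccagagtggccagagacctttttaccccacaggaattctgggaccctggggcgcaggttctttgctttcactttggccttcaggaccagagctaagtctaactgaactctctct
Mir9-3, 279 bp upstream, chr7:79504836-79504985: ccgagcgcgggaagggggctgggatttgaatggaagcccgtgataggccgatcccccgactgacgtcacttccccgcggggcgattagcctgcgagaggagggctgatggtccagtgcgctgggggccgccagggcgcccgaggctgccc
Mir210, 343 bp upstream, chr7:141221836-141221985: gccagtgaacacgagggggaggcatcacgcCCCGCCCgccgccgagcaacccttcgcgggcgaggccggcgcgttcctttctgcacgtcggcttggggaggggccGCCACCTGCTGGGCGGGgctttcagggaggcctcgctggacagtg
Mir22, 511 bp upstream, chr11:75463016-75463205: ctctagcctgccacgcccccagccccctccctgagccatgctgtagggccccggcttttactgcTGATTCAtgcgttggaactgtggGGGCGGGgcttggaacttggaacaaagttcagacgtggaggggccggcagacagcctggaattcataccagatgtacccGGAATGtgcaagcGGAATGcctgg
Mir34a, 1681 bp downstream, chr4:150070236-150070425: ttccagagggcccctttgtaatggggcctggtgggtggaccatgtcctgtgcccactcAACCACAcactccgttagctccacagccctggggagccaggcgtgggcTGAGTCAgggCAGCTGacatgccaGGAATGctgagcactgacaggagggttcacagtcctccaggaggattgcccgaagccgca

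The let-7 genes differed widely in the chromatin beside them. Of 12 let-7 and miR-98 hairpins, 3 had a site by the rule, namely let-7i, let-7b and let-7e. The other members comprised 2, let-7c-2 and let-7g, with regions of 1 or 2 replicates, and 7 with no region within 2 kb. Among all genes with a Mir name, 19.4% had a site and 50.5% had no region within 2 kb. The 7 genes are not all separate loci, since let-7a-1, let-7f-1 and let-7d lie in 1 cluster. Of RefSeq genes with a mature sequence matched to the annotation, 13 had the seed GAGGUAG, among them Mir1961 and Mir7k but not let-7a-2. Of these 13 the same 3 had a site.

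The let-7i gene lies on the minus strand of chromosome 10 at 122985640 to 122985724 in no annotated host gene, and it had 4 sites within 2 kb, more than any other gene of the 4 families. The site 232 bp upstream of the hairpin scored 132, 128 and 123. Another site, 612 bp upstream, scored 105, 90 and 105. These upstream sites were the strongest of the 4 in every replicate, at a mean percentile of 96.5 and 87.9.
Downstream of the let-7i hairpin, a site at 155 bp scored 101, 80 and 73 and a site at 1835 bp scored 70, 56 and 24. The last of these stood at percentile 66.2 in replicate 1 and 20.4 in replicate 3, whereas the site at 232 bp upstream stood between 96.2 and 96.8 in every replicate. The nearest annotated start site, of Mon2, was 13262 to 16002 bp away from the 4 sites in GENCODE, and at least 46204 bp away in RefSeq. In the printed sequences, the 3 sites nearest the hairpin are rich in CpG, with 21, 23 and 25 CpG in the central 150 bp from downstream to upstream, against 1 in the site at 1835 bp.

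The let-7b gene, which shares a transcript named Lncppara with let-7c-2 on chromosome 15, had 1 site, 1993 bp downstream, with scores of 99, 84 and 90. It sits just inside the 2 kb limit. The same region was 2699 bp from let-7c-2 and so was no site of that gene. A stronger pair of regions lay upstream of let-7b, at 3794 bp with scores of 127, 122 and 127 and at 4654 bp with scores of 125, 123 and 127; the first was 248 bp from a Lncppara start site.

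The let-7e hairpin on chromosome 17 forms a cluster with miR-99b and miR-125a within Spaca6, and 1 site lay within 2 kb of all of these genes. It lay 1283 bp upstream of miR-99b and 1447 bp upstream of let-7e and scored 90, 68 and 94. Replicate 3 was the highest and replicate 2 the lowest of the 3. It was 1352 bp from a Spaca6 start site, and a region closer to that promoter, 73 bp from the start site, scored 135, 130 and 137.

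For the remaining let-7 genes regions of all replicates lay outside the window, where there were any within 10 kb. Upstream of the let-7a-1, let-7f-1 and let-7d cluster on chromosome 13, the nearest such region, 7524 bp from let-7a-1, scored 147, 139 and 137, and it was 515 bp from a start site of the long noncoding gene 6720427I07Rik. For let-7c-1, the nearest was 2852 bp upstream and scored 71, 46 and 41, with another 2906 bp downstream at 115, 103 and 73, and for let-7a-2 a region 3331 bp upstream scored 81, 64 and 44. Within 10 kb, with regions near start sites counted, let-7i had 9 regions of all replicates. By the same count let-7b, let-7c-1 and let-7c-2 had 6 each, and let-7f-2 and miR-98 had 0.

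**Figure D1:**
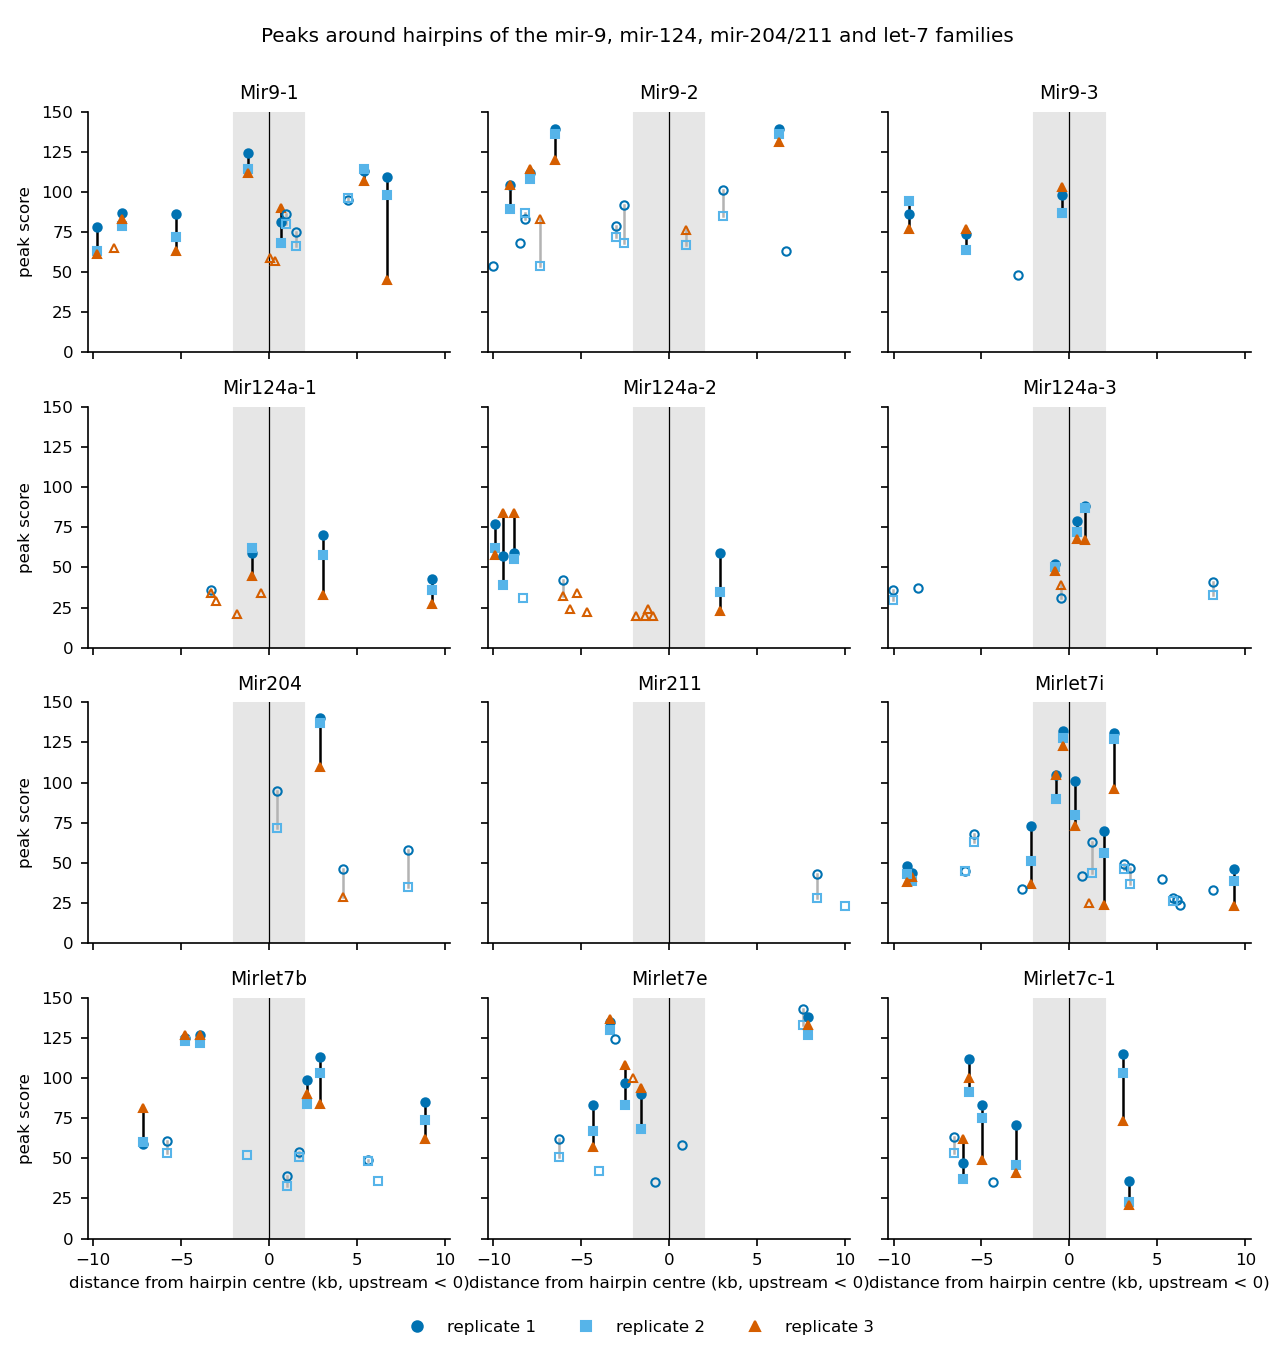
Peak score of each region within 10 kb of 12 hairpins, by distance of the region's centre from the hairpin centre in kb with upstream to the left; filled symbols joined by a black line are regions with a peak in all 3 replicates, open symbols regions of 1 or 2 replicates, and the grey band marks 2 kb on either side. The let-7i panel holds 4 filled regions by the rule in the band, Mir9-2 and Mir204 have their strongest filled regions outside it, and in the Mir124a-2 panel the band holds only open triangles of replicate 3. The band is drawn from the hairpin centre, whereas the rule measures edge to edge. The let-7b site, with its centre at 2129 bp, therefore lies just outside the band.

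The miR-9 family had sites at 2 of its 3 genes. Mir9-3, on chromosome 7 in the long noncoding Mir9-3hg, had 1 site 279 bp upstream of the hairpin, with scores of 98, 87 and 103. Mir9-1, on chromosome 3 in Gm3764, had 1 site 550 bp downstream, with scores of 81, 68 and 90. At both, replicate 3 was the highest and replicate 2 the lowest.
The Mir9-1 site was 1741 bp from a start site of Gm3764, and a stronger region 1073 bp upstream of the hairpin, at scores of 124, 114 and 112, overlapped such a start site. Regions at 850 bp and 1390 bp downstream of Mir9-1 had peaks in replicates 1 and 2 only, with scores of 86 and 80 for the first and 75 and 66 for the second.
Mir9-2, within C130071C03Rik on chromosome 13, had no site by the rule, and its only region within 2 kb had peaks in replicates 2 and 3, at scores of 67 and 76. The nearest region of all replicates lay 6111 bp downstream and was strong, with scores of 139, 136 and 131. On the other side of the hairpin, 6349 bp upstream, a region 101 bp from a start site of the same gene scored 139, 136 and 120. Within 10 kb, and with those near start sites counted, Mir9-1, Mir9-2 and Mir9-3 had 7, 4 and 3 regions of all replicates. The share of all miRNA genes with such a region within 10 kb was not counted. With a 5 kb window and start sites left out, 34.1% of all miRNA genes had a site.

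None of the 3 miR-124 genes had a site by the rule. Mir124a-1 and Mir124a-3 had regions of all replicates within 2 kb, but these lay within 1 kb of annotated start sites. At Mir124a-1 the region was 812 bp upstream, overlapped a start site of Mir124a-1hg and scored 59, 62 and 45. At Mir124a-3 the 3 regions scored 52, 50 and 48, then 79, 72 and 68, then 88, 87 and 67, all within 751 bp of a start site of Gm27032.
At Mir124a-2 no region of all replicates lay within 2 kb, and the 4 regions there had peaks in replicate 3 alone, with low scores of 20 to 24. Scores around the miR-124 hairpins were thus at most 88, below the 123 to 132 of the strongest let-7i site.

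Neither miR-204 nor miR-211, which share the seed UCCCUUU and sit in the introns of the channel genes Trpm3 and Trpm1, had a site by the rule. Next to miR-204, a region 304 bp downstream had scores of 95 and 72 in replicates 1 and 2 and no peak in replicate 3. A region 2684 bp downstream, in Trpm3, was accessible in every replicate and scored 140, 137 and 110. For miR-211 no region lay within 2 kb, and within 10 kb no region had a peak in every replicate. Across the 4 families, 5 of 20 genes had a site, at 8 sites in all.

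The other lists of microRNAs were chosen by the cells in which they are known to act, and all counts are read against the 17.0% of all miRNA genes that had a site. The lists were made with earlier results of these data known, so setting them beside that share is a description and no test. The list genes named here carry Mir names, and for genes with such a name the share was 19.4%. Genes known from glia and from stress or injury responses had sites at 13 of 27. The miR-125, miR-99 and miR-100 genes, which often lie in clusters with let-7, had sites at 4 of 6. Both lists hold clusters in which several genes share 1 site, so the 13 genes rest on 11 distinct sites and the 4 genes on 3. Some of the 11 lie side by side at 1 locus, as at miR-21a, miR-135b and the miR-34b and miR-34c pair. The loci are thus fewer than the sites.

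Among the glial and stress-induced genes, miR-22 had a site 511 bp upstream with scores of 143, 146 and 136. It lay 1301 bp from a start site of Tlcd2 and 1477 bp from the RefSeq start of its host transcript Mir22hg. The p53 target miR-34a had a site 1681 bp downstream with scores of 142, 136 and 137. Both stood above percentile 98 in every replicate.
The miR-34b and miR-34c pair, also p53 targets, shared 2 sites: one overlapped the miR-34b hairpin and scored 98, 95 and 92, and the other lay 251 bp upstream and scored 88, 76 and 80. RefSeq places starts of Btg4 transcripts at 74 and 554 bp from these sites, so they count as distal by GENCODE alone. At both sites replicate 1 was the highest, and all scores stayed between 76 and 98.
For miR-21a, which is induced in reactive glia, 2 sites lay 1202 and 1862 bp downstream of the hairpin, with scores of 109, 95 and 77 and of 100, 87 and 76. At both, replicate 1 was the highest and replicate 3 the lowest. The cluster of miR-23a, miR-27a and miR-24-2 shared 1 site 1475 bp downstream of miR-24-2, with scores of 127, 117 and 104.
The 2 sites of miR-135b scored 104, 102 and 96 upstream and 117, 99 and 90 downstream. RefSeq places a start of Gm29695 at 722 bp from the downstream site, which is thus distal by GENCODE alone. The site of miR-29b-2 and miR-29c, which repress collagen genes, was lower in replicate 3, with scores of 102, 98 and 50. The site of miR-181c and miR-181d went the other way, with scores of 33, 28 and 51, at percentiles of 21.5, 24.5 and 61.0. Of 14 genes of this list without a site, 3 had only sites within 1 kb of a start site, 2 only regions of 1 or 2 replicates and 9 no region; the last include Mir29a, Mir31 and Mir146.

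In the list of miR-125, miR-99 and miR-100, the site of miR-125b-2 was the strongest, 1668 bp from the hairpin, with scores of 126, 111 and 100. The site of miR-100 scored 81, 64 and 44 and lay 1652 bp downstream. A region nearer to miR-100, 232 bp away, scored 128, 123 and 73 but was 202 bp from a start site of Gm48742. By seed, CCCUGAG of miR-125 was held by 6 RefSeq genes, 3 of them with a site, and ACCCGUA of miR-99 and miR-100 by 3 genes, 2 of them with a site.

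Of the neuronal microRNAs, 2 of 13 genes had a site and both sites were strong. One overlapped the hairpin of miR-128-2, a brain-enriched microRNA in an intron of Arpp21, and scored 135, 128 and 114. It was 67124 bp from the nearest start site. The other lay 452 bp upstream of miR-7-2 and scored 138, 133 and 97. The sequence of the miR-7-2 site follows, from the plus strand of mm10 with motif matches in capitals, because it is a strong site of a microRNA known from neurons in a glial sample.

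Mir7-2, chr7:78887656-78887825: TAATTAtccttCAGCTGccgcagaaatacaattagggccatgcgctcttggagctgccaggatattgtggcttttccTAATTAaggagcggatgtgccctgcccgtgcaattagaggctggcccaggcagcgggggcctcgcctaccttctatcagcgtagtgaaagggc

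The capitals in Mir7-2 are 2 copies of TAATTA, a homeobox core, and 1 CAGCTG, the E-box of proneural factors. A further 4 neuronal genes, Mir7b, Mir132, Mir137 and Mir212, had only sites within 1 kb of a start site, and 6 had no region.

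The photoreceptor cluster of miR-183, miR-96 and miR-182 had no region within 2 kb, and the nearest region of all replicates was 3533 bp from miR-182, with scores of 53, 45 and 40. Of 5 myeloid and lymphoid genes 0 had a site, and of 4 endothelial genes 0 had one.
At miR-142, which is specific to blood cells, regions of replicates 1 and 2 alone lay 1259 bp upstream, with scores of 97 and 98, and 99 bp upstream, with scores of 68 and 69. The first overlapped a start site of Mir142hg. Replicate 3 had no peak in either. The macrophage markers Spi1, Cx3cr1, C1qb and Csf1r divided the replicates in the same way. They had 4, 4 and 0 open promoters in replicates 1, 2 and 3. Endothelial markers (3, 3 and 2 of 4) and pigment epithelium markers (2, 2 and 1 of 2) were also lower in replicate 3. Among all merged regions over 1 kb from start sites, 26.9% had peaks in replicates 1 and 2 alone, though the miR-142 regions lie nearer to one. The part of macrophages in these values was not tested.

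Muscle genes had sites at 1 of 10, with miR-499 in Myh7b at scores of 63, 48 and 36. Genes of liver, pancreas and gut had 1 of 9, with the islet microRNA miR-375 at scores of 41, 38 and 33. Epithelial genes had 1 of 7, with the epidermal miR-203 at scores of 116, 110 and 56. Of these only the miR-203 site was above 100 in any replicate.
Mural and mesenchymal genes had 2 of 9, where miR-143 and miR-145a, known from smooth muscle, shared 1 site with scores of 92, 74 and 57. The embryonic stem cell clusters had 3 of 14, where miR-293, miR-294 and miR-295 shared 1 site with scores of 84, 55 and 43. In the proliferation clusters, such as miR-17 to miR-92, 0 of 15 genes had a site. In these clusters 10 genes had only sites within 1 kb of a start site, which the rule removes, beside 13.4% of genes with a Mir name. These 10 genes rest on few regions. Mir17, Mir18, Mir19a, Mir19b-1 and Mir20a shared 1 region, as did Mir25, Mir93 and Mir106b, and also Mir106a and Mir18b.

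**Figure D2:**
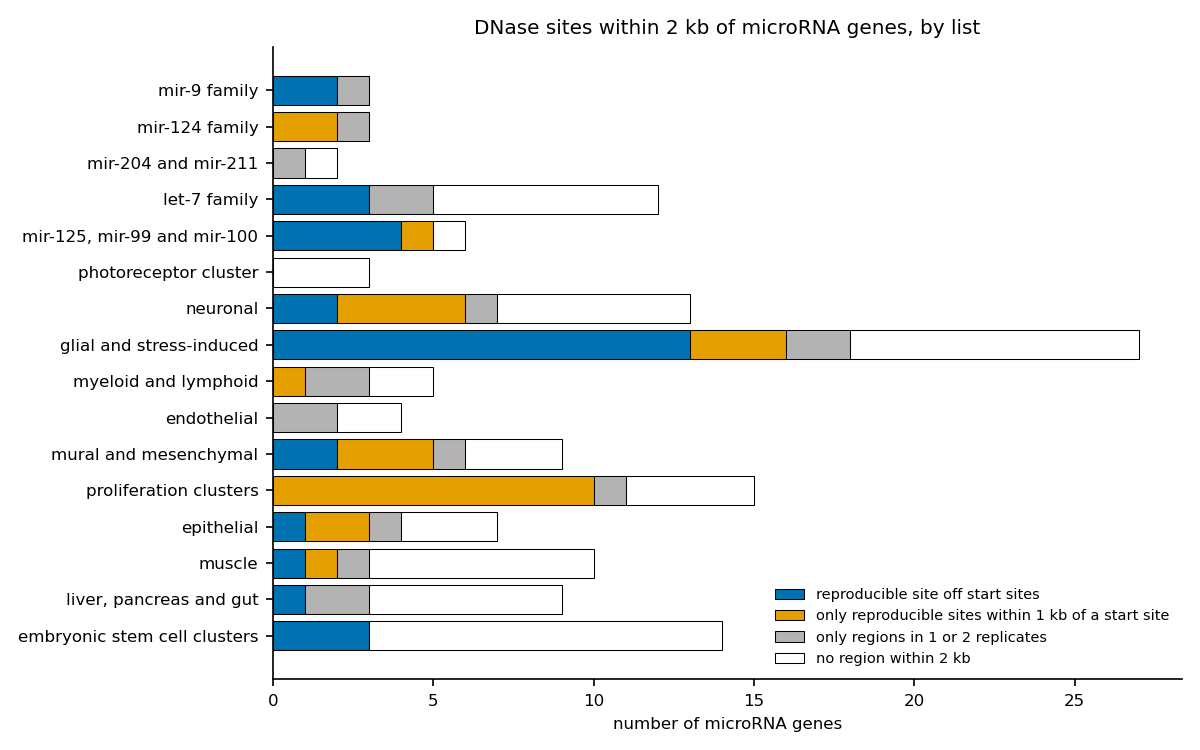
Number of microRNA genes in each of 16 lists, coloured by what lay within 2 kb of the hairpin, with each gene counted once. The glial and stress-induced list has the most genes with a site, 13 of 27, the proliferation clusters have 10 of 15 with only sites within 1 kb of a start site, and the photoreceptor cluster has no region at all. Genes of a cluster can share a region, so the bars count genes and not loci.

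The highest-ranked sites were not those of the best known families. By mean percentile over the replicates the first was next to Gm22118 in an intron of Zswim6, 1996 bp from the hairpin, with scores of 144, 147 and 146. The site 343 bp upstream of miR-210, a microRNA induced by low oxygen through HIF, scored 147, 142 and 144. Next came miR-3072, at 145, 143 and 139.
The next places were held by miR-7662 in Tspan15 at 146, 144 and 137, miR-22, miR-3109 in Anxa2 at 145, 139 and 133, and miR-7000 in Mapk8ip1 at 140, 138 and 138. They were followed by miR-34a, by Gm47305 at 142, 137 and 134, and by miR-7671 near Irf1 at 136, 137 and 138. All of these sites were above percentile 97 in every replicate, and every hotspot they lay in had a −log10 q at the cap of 100. Since scores end at 150, the order among them is close to that ceiling.

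The printed miR-210 sequence had 17 CpG in 150 bp, a CTCF match that overlapped GGGCGGG and another GGGCGGG on the other strand. The miR-22 sequence held an AP-1 match, 2 copies of the TEAD motif GGAATG and 1 GGGCGGG. The miR-34a sequence held 1 match each to AP-1, TEAD, RUNX and CAGCTG. A match of this kind is a description of the letters and not of a bound factor.

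Most genes with a site had just 1. Of the 374 genes, 296 had 1 site, 56 had 2, 13 had 3, 6 had 4 and 3 had 5. The genes with 5 were Gm22117 in Chst3, Gm25993 in Sdccag8 and n-TStga1, whose symbol is that of a transfer RNA gene although the annotation types it as miRNA.
The 5 sites around Gm22117 spanned scores of 83 to 141 in replicate 1 and 57 to 127 in replicate 3. Those around Gm25993 spanned 33 to 100 and 21 to 58. Those around n-TStga1 spanned 98 to 116 and 60 to 80, the narrowest range of these genes. The genes with 4 sites were Gm25301 and miR-378a, whose hairpins overlap in Ppargc1b, and miR-193b, miR-6950 in Loxl2, miR-759 and let-7i.
At miR-193b the 4 sites all lay upstream, 838 to 1898 bp from the hairpin, and were weak, with scores from 29 to 77. All 4 were within 504 bp of a RefSeq start site that GENCODE does not list.

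**Figure D3:**
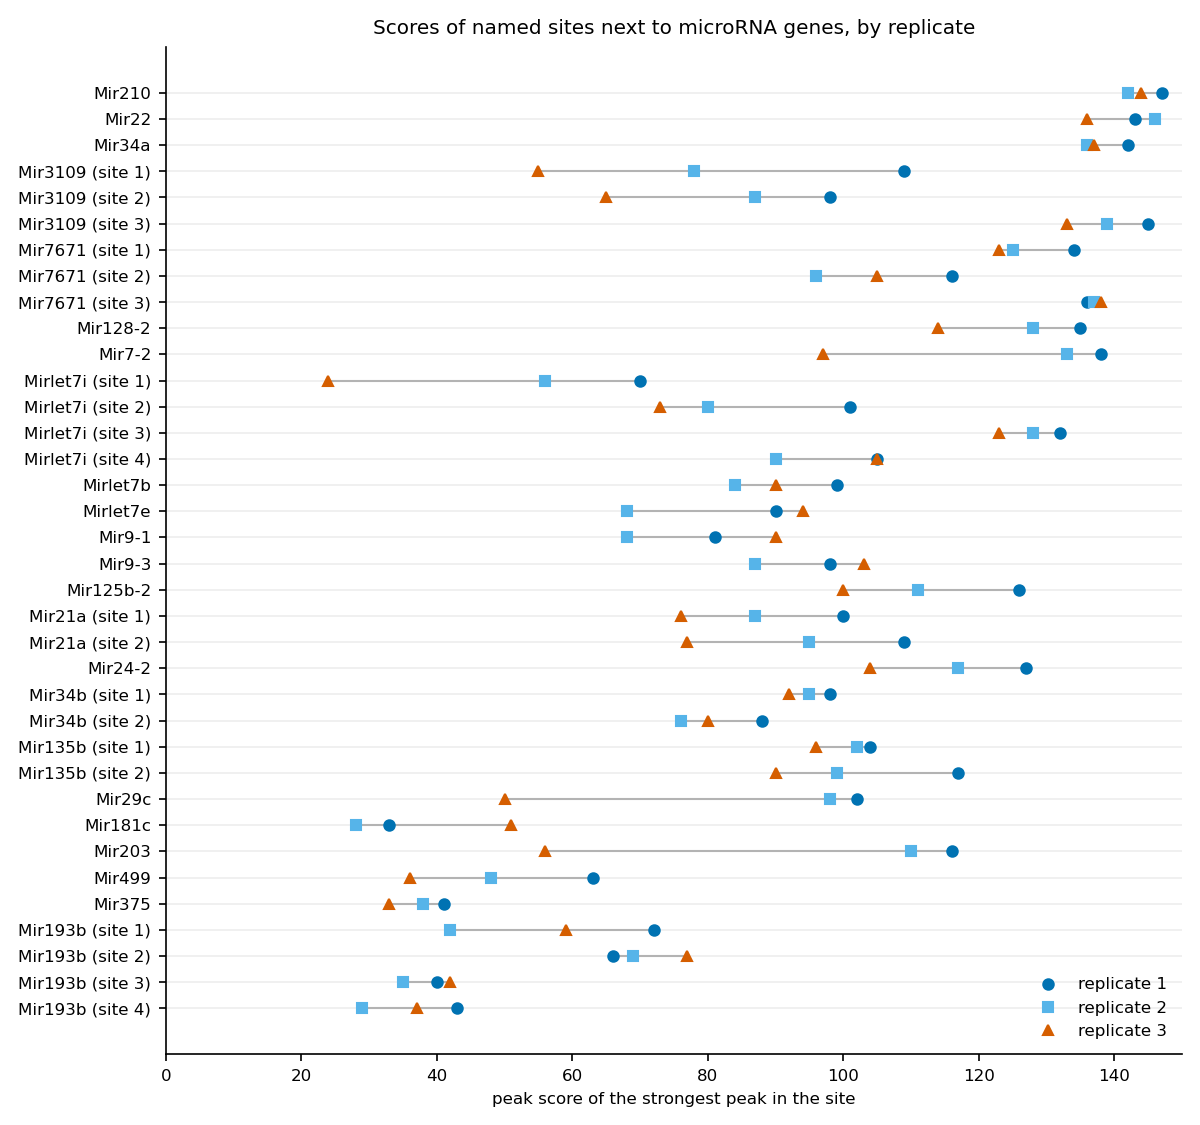
Peak score of named sites next to microRNA genes, with 1 row per site in order of coordinate within a gene and 1 symbol per replicate. The miR-210, miR-22 and miR-34a sites lie at 136 or above in every replicate, the 4 let-7i sites run from 24 to 132, and replicate 3 lies far to the left at miR-29c, miR-203 and the first let-7i site.

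MicroRNA genes as a class had sites about as often as 1 other class of small RNA genes. A site by the rule was found at 374 of 2202 miRNA genes, or 17.0%, with a 95% Wilson interval of 15.5% to 18.6%. The interval covers counting error only and treats genes as independent. Since clustered or overlapping genes can share sites, it may be too narrow. The same rule gave 17.2% of 1383 snRNA genes and 12.0% of 1507 snoRNA genes. The miRNA share was thus close to that of snRNA genes, while the snoRNA share lay below the interval; the differences were not tested.
The annotated miRNA genes are of unlike kinds. Of 1174 genes with a Mir name 228 had a site, or 19.4%, and of 1028 with other names 146 had one, or 14.2%. A further 238 of all miRNA genes had only sites within 1 kb of a start site, 364 had only regions of 1 or 2 replicates and 1226 had no region within 2 kb.

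Regions beside microRNA genes were shared by the replicates about as often as those elsewhere. Of 1160 merged regions within 2 kb of a miRNA gene and over 1 kb from start sites, 460 had a peak in all replicates, or 39.7%, beside 39.2% of all such regions anywhere. Regions of replicates 1 and 2 without 3 made up 288 of the 1160, or 24.8%, beside 26.9% everywhere. Regions of replicate 3 alone made up 83, or 7.16%, beside 5.21%.
Regions that were among the top 10% of peaks in both replicates 1 and 2 and missing from replicate 3 numbered 2, or 0.172% of the 1160 beside 0.0788% everywhere. They lay next to miR-6352 with scores of 125 and 113 and next to miR-3109 with scores of 133 and 128. The second is a neighbour of the strongest miR-3109 site, which had a peak in every replicate. Next to microRNA genes 0 regions were in the top 10% of replicate 3 and missing from the others, and everywhere such regions were 65, or 0.0224%.

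Sites lay on both sides of the hairpin in similar numbers. There were 219 upstream, 208 downstream and 33 that overlapped the hairpin itself. By 500 bp steps the counts upstream were 56, 57, 50 and 56 from the hairpin outward, and downstream they were 48, 43, 63 and 54. Every step thus held between 43 and 63 sites.
The sites that overlapped a hairpin included those of miR-128-2, miR-34b and miR-7671, with miR-7671 the strongest at 136, 137 and 138 and miR-5099 the weakest at 14, 19 and 15. Of the sites, 442 were within 2 kb of 1 miRNA gene and 18 of more than 1.

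By the annotation at their centres, 265 sites were intronic, 150 intergenic and 45 exonic. This is 57.6%, 32.6% and 9.78%, beside 49.7%, 46.0% and 4.31% of all distal sites. Introns and exons thus took a larger share next to microRNA genes. Of the 374 genes with a site 70.9% lay in a host gene, beside 66.0% of all miRNA genes.

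The sites next to microRNA genes had higher median scores than distal sites at large; this is a description, with no test. Their median scores were 84, 68 and 54, beside 76, 62 and 43, and their median percentiles were 76.3, 72.8 and 63.8, beside 70.9, 68.3 and 52.0. Of the 460 sites 46, or 10%, were in the top 10% of peaks in every replicate, beside 4.81% of all distal sites. The difference in medians was largest in replicate 3. Both sets had to hold a peak in every replicate, which can favour stronger peaks, so these percentiles are not those of unselected peaks.

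**Figure D4:**
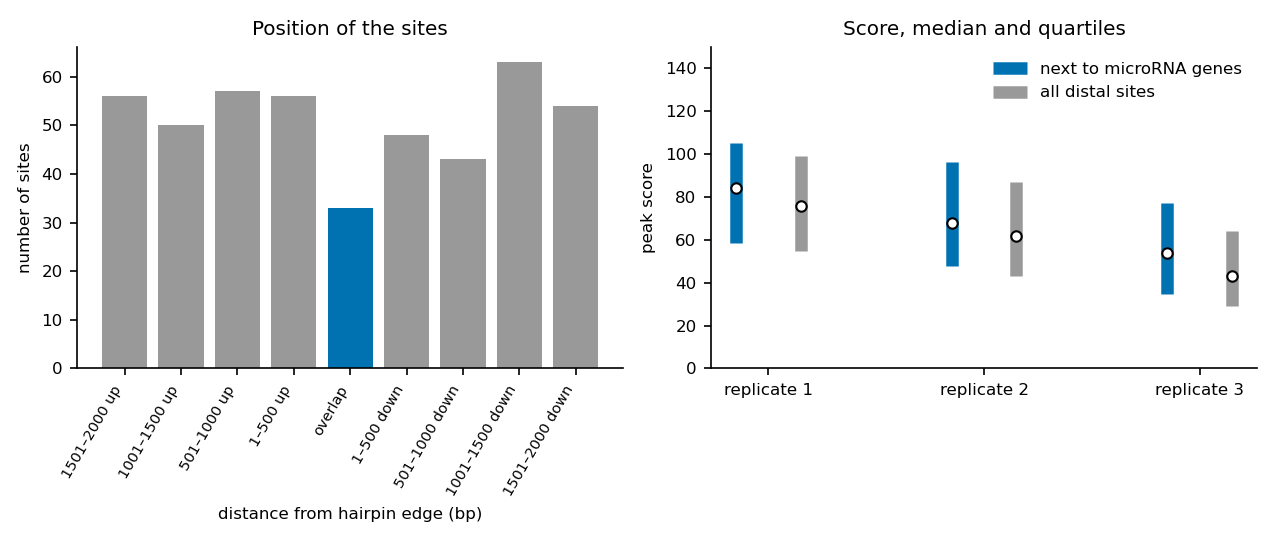
Left, number of sites by distance from the hairpin edge in bp, with upstream bins to the left and the 33 sites that overlap a hairpin in blue; right, median peak score (circle) and quartiles (bar) in each replicate for the 460 sites and for all 113908 distal sites. The counts stay between 43 and 63 in every bin outside the hairpin, and the medians next to microRNA genes are 84, 68 and 54 against 76, 62 and 43.

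They also lay closer to annotated start sites. The median distance to the nearest start site was 7971 bp, beside 19580 bp for all distal sites, and 38.5% lay within 5 kb, beside 18.7%. At 1 to 5 kb from a GENCODE start site, 14.1% of the 177 sites were in the top 10% in every replicate, beside 6.10% of all distal sites at that distance. Over 5 kb away the shares were 7.42% of 283 sites and 4.51%. The share was thus higher at both distances, with a smaller gap far from start sites, and it rests there on 21 sites.
Intronic shares were alike within 5 kb of a start site, at 61.6% and 62.6%, and were 55.1% and 46.8% beyond. Exonic shares were 15.3% and 11.4% within 5 kb and 6.36% and 2.69% beyond. RefSeq transcripts start within 1 kb of 37 of the 460 sites, or 8.04%, beside 3.35% of all distal sites, so these 37 are distal by GENCODE alone. They include the 4 sites of miR-193b, both sites of miR-34b and the downstream site of miR-135b.

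Base composition differed in the same direction. In 150 bp around the centre the median GC content was 52.7%, beside 48.7% for all distal sites, and 118 sites, or 25.7%, held 5 or more CpG, beside 11.1%. Within 5 kb of a start site the CpG-rich shares were 32.8% and 17.3%, and beyond 5 kb they were 21.2% and 9.64%. These distances run to GENCODE start sites alone, and the shares were not counted again with RefSeq start sites. For example, a miR-8120 site with 17 CpG lay 6743 bp from a GENCODE start site and 54 bp from a RefSeq one. CpG-rich sites over 5 kb from any annotated start site include the let-7i sites printed above, at 13262 to 14322 bp, and the miR-210 site lies in the nearer group, at 4198 bp.

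**Figure D5:**
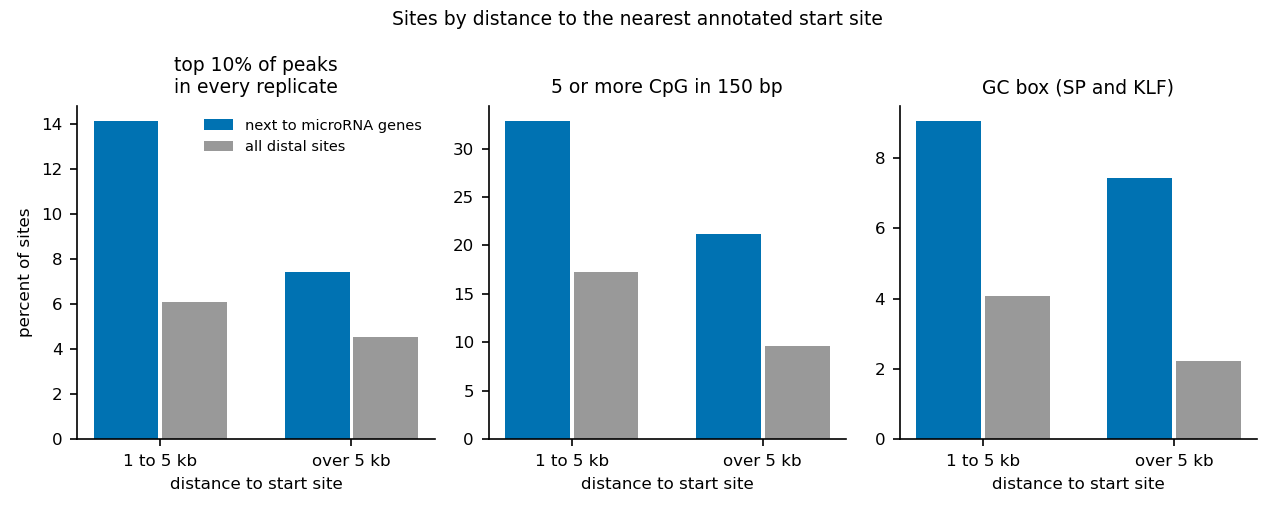
Percent of sites next to microRNA genes (blue) and of all distal sites (grey) at 1 to 5 kb and at over 5 kb from the nearest annotated start site that are in the top 10% of peaks in every replicate, that hold 5 or more CpG in 150 bp, and that hold GGGCGGG. The blue bar is the higher in each pair, for example 21.2% against 9.64% for CpG at over 5 kb. Start sites are those of GENCODE, and some sites in the group over 5 kb lie near a RefSeq start site.

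The 18 consensus motifs were searched on both strands of the same 150 bp, and shares next to microRNA genes are followed by those of all distal sites. The motif with the largest ratio was GGGCGGG, the GC box of SP and KLF factors, at 8.04% and 2.55%. At 1 to 5 kb from a GENCODE start site it was at 9.04% and 4.06%, and beyond 5 kb at 7.42% and 2.21%. The GC content of the sites moves with this count, and its part was not tested.
Other motifs with higher shares in the central windows were CCGGAAG of ETS factors at 1.74% and 0.887%, TCAGCACC, the left arm of the REST site, at 1.52% and 1.10%, and GGATTA of OTX and CRX at 5.43% and 4.07%. CTCF, spelled as CC, AG and GGC with gaps of 3 and 2 bases, was at 10.7% and 8.73%. GAGGAAGT of PU.1 was at 1.52% and 1.26%, CAGCTG at 14.8% and 13.4% and TGTGGTT of RUNX at 7.39% and 7.14%. For RUNX the order turned when the whole region was searched, at 8.26% and 8.54%. Several of these rest on few sites, such as 7 for REST and for PU.1 and 8 for ETS.
Lower shares were found for TGANTCA of AP-1 at 16.7% and 21.7%, CATTGT of SOX factors at 10% and 12.6%, TAATTA at 5.22% and 6.94%, and TTC and GAA with a gap of 3 bases, of STAT, at 3.70% and 5.93%. Lower shares were also found for GGAATG of TEAD at 19.1% and 19.9%, TTGGCA, the core of NFI, at 17.0% and 18.2%, and CACGTG of MYC and MITF at 1.74% and 2.03%. For CACGTG the order turned over the whole region, at 3.26% and 2.57%. The full NFI palindrome (TTGGC and GCCAA with a gap of 5), the RFX palindrome (GTT, CC, GG and AAC with gaps of 1, 2 and 1) and CAAGGTCA of ROR and ESRR had no match in the 460 windows and 0.0887%, 0.174% and 0.880% in all distal sites. Both of these palindromes are so rare in all distal sites that their absence from 460 windows does not show a lower share. The core of NFI shares TTGGC with the NFI palindrome, so the 2 forms can overlap.

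Scores next to microRNA genes were ranked alike in replicates 1 and 2 and less alike in replicate 3. Across the 460 sites Spearman's rho was 0.958 for replicates 1 and 2, 0.759 for 1 and 3, and 0.777 for 2 and 3. Across all distal sites the values were 0.955, 0.756 and 0.772. These are correlations across sites, which are not replicates, and the replicates share a donor label. In percentile, 119 sites were lower in replicate 3 by over 20 points than in the mean of the others, 15 were higher and 326 differed less. This is 25.9% lower and 3.26% higher, beside 36.1% and 2.12% of all distal sites.
The sites lower in replicate 3 by the widest margin were next to miR-6932 in Helz, at scores of 81, 71 and 16, and next to miR-2137 in Zfp185, at 122, 102 and 28. The site higher by the widest margin was that of miR-181c given above. Among the 8 sites of the named families, only the let-7i site at 1835 bp differed by over 20 points, being lower in replicate 3. By percentile, both miR-9 sites, the let-7e and let-7b sites and the let-7i site at 612 bp were highest in replicate 3.

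The limits of the rule cut through a continuous range. Just inside the 2 kb window were the sites of Gm22118 at 1996 bp and of Gm23617 at 1997 bp, with scores of 113, 99 and 96. Just outside were regions 2003 bp from miR-3089, at 118, 108 and 88, and 2004 bp from miR-6962, at 129, 127 and 83. On the start site limit, the sites of Gm44486 at 1002 bp, with 84, 75 and 42, and of miR-7687 at 1010 bp, with 124, 124 and 115, were kept. Regions next to miR-7052 at 993 bp, with 47, 37 and 52, and next to miR-5126 at 995 bp, with 54, 36 and 18, were left out.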

How the data were processed

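DNase-seq was done on 3 libraries of 1 group. Per the README files deposited with each sample, the authors derived each list from the filtered alignments of that library plus 1 further file, without pooling, on mm10. Which aligner and peak caller were used is not given in the sources used here. The peak value is a deposited score (1 to 150), unit not stated. The hotspot value is a deposited −log10 q, from 1.30 to 100. Neither gives counts, so depth is unknown.

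Repeated peak positions were removed (21, 20 and 23 in replicates 1, 2 and 3), and peaks were merged at 1 bp overlap. Genes came from GENCODE M21 (GRCm38, the build mm10 names). Distances run edge to edge. Motifs were counted in 150 bp around the centre. The merging and distance steps were tested on simulated data. All results are descriptions; no test between groups was possible. The sites, lists and motifs were chosen with earlier results of these data known. Named genes are all genes of the 4 families, the 10 highest by mean percentile, the 5 genes or clusters with most sites, list genes with a site, and sites at the limits. Other regions named beside these, such as those around miR-142 and the largest shifts in replicate 3, were chosen after their values were seen. Alternatives changed the window, start site limit, overlap, peak number, peak type and replicates. Python with pandas, NumPy, pysam and SciPy was used.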

Additional observations from a re-analysis of the deposited data

How the results depend on the processing

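The count of 460 sites moved by over 1.5 times with the window, the peaks used and replicate 3, and stayed within that range under the other settings. It was 237 with a 1 kb window, 1060 with a 5 kb window, 275 with the strongest 50% of peaks, and 476 to 752 with 1 replicate left out, where 752 is the value without replicate 3. Genes with a site numbered 205, 750 and 240 under the first 3 settings, 382 to 560 with 1 replicate left out and 212 when only genes in the RefSeq table were counted. The share of miRNA genes was 9.31% at 1 kb, 34.1% at 5 kb, 12.3% with a 2500 bp start site limit, 18.6% with protein-coding start sites only, 15.4% with 50% reciprocal overlap, 10.9% with the strongest 50% of peaks, 15.2% with the same number of peaks per replicate, and 17.3% to 25.4% with 1 replicate left out. The share of regions found in all replicates was 93.6% with 50% reciprocal overlap, which removes most unshared peaks by construction, 48.1% with the strongest 50% of peaks, 49.2% with equal peak numbers, and 45.4% to 69.1% with 1 replicate left out. Genes of the 4 families with a site numbered 3 at 1 kb (let-7b and let-7e lost), 11 at 5 kb (Mir124a-1, Mir124a-2, Mir204, let-7a-2, let-7c-1 and let-7c-2 gained), 3 with the 2500 bp limit (Mir9-1 and let-7e lost), and 5 to 7 with 1 replicate left out, Mir204 and let-7c-2 being gained without replicate 3. With only protein-coding start sites excluded the number was 7, with Mir124a-1 and Mir124a-3 gained. Hotspots in place of peaks gave 415 sites, and let-7e was lost there and with 50% reciprocal overlap. An alternative chosen after seeing the data, which also excluded RefSeq start sites, gave 423 sites at 353 genes. The causes of these shifts were not tested. All 18 motif shares stayed within their 95% Wilson intervals when whole regions were searched, but RUNX and CACGTG changed order against all distal sites. Whole regions hold the same central bases of the same sites, so staying within the intervals was largely fixed in advance. Depth is unknown, so a missing peak in replicate 3 does not show closed chromatin. No paired analysis was possible because there is 1 group.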
